A study of Mus musculus with 12 samples.

Results

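Whole kidneys of mice homozygous for the Trp-encoding allele of rs3184504 were compared with whole kidneys of mice homozygous for the Arg-encoding allele. The comparison used the 6 whole-kidney libraries of the 12 in the series, 3 per genotype, chosen by the tissue and genotype in their labels, and all 15361 protein-coding genes in the kidney table. Both alleles were made in mice with CRISPR-Cas9, and every mouse in both groups had received angiotensin II for 4 weeks to raise its blood pressure. No kidney without angiotensin II was analysed, so that the values describe genotype under angiotensin II alone. The labels call the libraries biological replicates, and state no age, sex, strain background or litter. RNA was polyadenylated RNA of the homogenised organ, so all cell types of the tissue taken were read together. Differences are given throughout as log2 fold changes of Trp/Trp over Arg/Arg, and a value after ± is the SE of the fit.

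The variant lies in Sh2b3, which encodes the adaptor protein LNK. LNK binds activated cytokine receptors and JAK kinases in blood cells and endothelium and restrains their signalling, and mice that lack it make too many B cells, platelets and myeloid cells. Angiotensin II constricts vessels, makes the tubule keep sodium and draws macrophages and T cells into the kidney, and these leukocytes are known to affect blood pressure and renal damage. The nephron itself filters at the glomerulus, recovers most solute in the proximal tubule with energy from fatty acid oxidation, and adjusts sodium, urea and water in the loop, distal tubule and collecting duct.

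Sh2b3 itself (mm10 chromosome 5, 121815488 to 121837646) was expressed at similar levels in both genotypes, at 28.6, 33.1 and 36.8 CPM in Arg/Arg and 37.2, 34.3 and 37.0 CPM in Trp/Trp, each in the order of replicates 1 to 3. CPM here are counts scaled to library size with TMM factors. The groups overlapped, and the log2 fold change was 0.14 ± 0.090 (SE), with a 95% interval of -0.066 to 0.34. The mRNA level is no check of the genotype labels, since the alleles differ in sequence and not in copy number.

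The libraries held 19586919 to 54686600 counts, and mitochondrially encoded genes took 7.86% to 9.35% of them (exact permutation test, two-sided, p = 0.40). With 3 libraries against 3, such a test cannot give a p below 0.10. Defining markers of every nephron segment were expressed in all libraries, among them Lrp2 of the proximal tubule, Umod of the thick ascending limb, Slc12a3 of the distal convoluted tubule and Aqp2 of the collecting duct. Trp/Trp replicate 1 was unlike the rest. It scored 39.6 on the leading principal component (40.7% of the variance), where the other 5 libraries scored -12.9 to -3.93. Among genes with at least 50 counts in the highest library, 204 were over 2-fold higher in it than in any other library, against 0 to 4 such genes in each of the others.

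Genes high in Trp/Trp replicate 1 included some known from B and plasma cells, from the urothelium that lines the renal pelvis and from fat, and also Ren1, C3, Dcn and Acta2, described below. Jchain, the joining chain of secreted immunoglobulin, was at 1.35, 2.86 and 1.68 CPM in Arg/Arg and 66.8, 2.03 and 2.40 CPM in Trp/Trp. Cd79a, a part of the B cell receptor, was at 0.439, 0.388 and 0.398 CPM in Arg/Arg and 4.03, 0.216 and 0.208 CPM in Trp/Trp, so that the other Trp/Trp libraries lay below every Arg/Arg library. Upk1b, a uroplakin of the urothelial surface, was at 3.42, 5.90 and 4.01 CPM in Arg/Arg and 31.0, 5.21 and 4.79 CPM in Trp/Trp. In each of these genes a single Trp/Trp library made the group mean high, and in bulk tissue more cells of a type and more RNA per cell cannot be told apart. Cidec, a lipid droplet protein of adipocytes, was at 1.87, 2.72 and 1.38 CPM in Arg/Arg and 15.7, 2.79 and 2.29 CPM in Trp/Trp. Krt15, a basal epithelial keratin, was at 2.25, 2.98 and 2.17 CPM in Arg/Arg and 21.03, 2.16 and 2.87 CPM in Trp/Trp. Retn, the adipocyte hormone resistin, was at 0.790, 0.721 and 0.735 CPM in Arg/Arg and 7.34, 1.49 and 1.251 CPM in Trp/Trp, and here replicates 2 and 3 were also above every Arg/Arg library. Among the genes lowest in that library, Wnt9b, a collecting duct Wnt ligand, was at 6.47, 6.10 and 4.93 CPM in Arg/Arg and 2.37, 6.46 and 8.23 CPM in Trp/Trp. Angptl7 was at 8.96, 6.56 and 4.96 CPM in Arg/Arg and 2.83, 7.52 and 9.28 CPM in Trp/Trp. Pvalb, the calcium buffer of the early distal convoluted tubule, was at 27.3, 17.4 and 21.6 CPM in Arg/Arg and 12.2, 20.2 and 25.4 CPM in Trp/Trp. These genes were picked for their level in that library and are a description. Values without that library, or over each library left out, stand beside many of the results below.

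**Figure D1:**
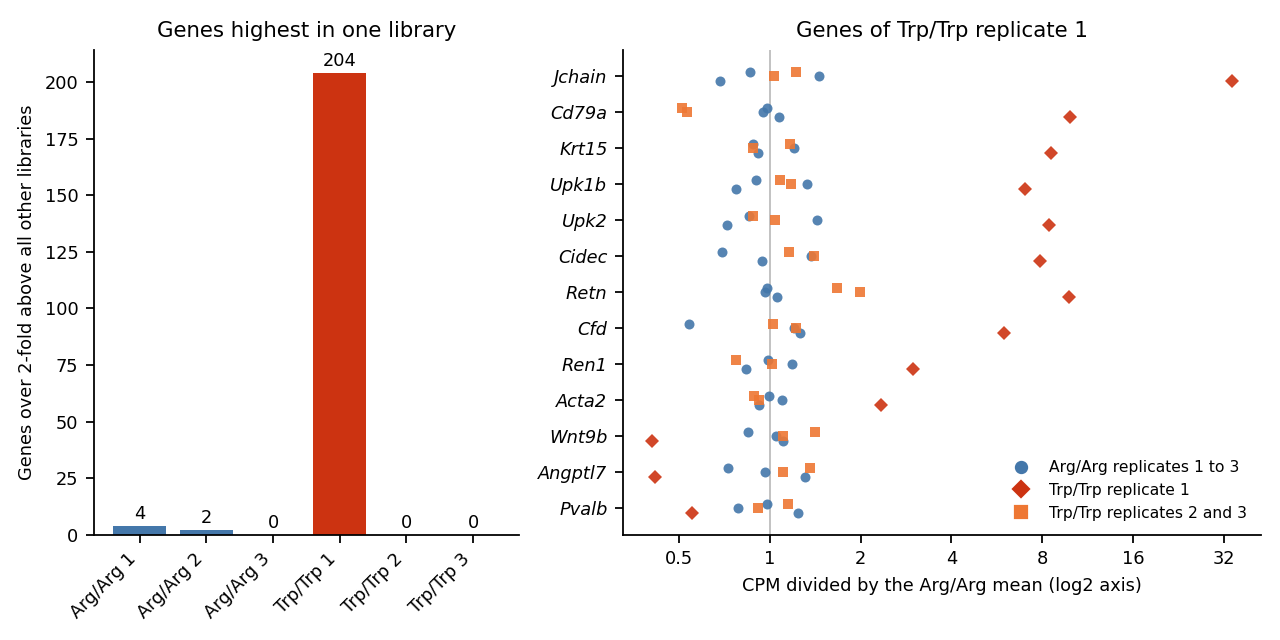
Left, the number of genes over 2-fold higher in a library than in every other library, for each of the 6 kidneys. Right, CPM of 13 genes in each library divided by the Arg/Arg mean, on a log2 axis (circles Arg/Arg, diamond Trp/Trp replicate 1, squares Trp/Trp replicates 2 and 3). Trp/Trp replicate 1 held 204 such genes and the others 0 to 4, and the diamond lies outside the other 5 points in all 13 genes.

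Across the transcriptome the genotypes were close. Of the 15361 genes, 14464 passed the filter on low counts, 70.5% of these differed by less than 1.1-fold, and the median log2 fold change was 0.0021. No gene passed an adjusted p of 0.05 in the edgeR quasi-likelihood test (0.00% of genes tested; smallest adjusted p 0.843). At an unadjusted p under 0.05 there were 826 genes (5.71%), 532 higher in Trp/Trp (3.68%) and 294 lower (2.03%). The 3 libraries of one genotype lay wholly above those of the other for 1611 genes (11.1%), with Trp/Trp above for 811 (5.61%) and Arg/Arg above for 800 (5.53%). Leaving out Arg/Arg replicate 2 gave 329 higher and 163 lower genes at that unadjusted p, and leaving out Trp/Trp replicate 2 gave 852 higher ones. DESeq2, the other count test run, called 15 genes (0.0977%), of which 10 were higher in Trp/Trp (0.0651%; Cx3cr1, Dusp1, Cyp24a1, Mpeg1, Plek, Ucp1, Hmcn2, Il2rb, Dbp and Cd52) and 5 lower (0.0326%; Nt5e, Ehhadh, Bcat1, Nr1h4 and H1f2). For the single genes below, the unadjusted p is printed and none passed after adjustment in edgeR.

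Without Trp/Trp replicate 1 the edgeR test again called no gene (0.00%), with a smallest adjusted p of 0.260 among 14518 genes. At an unadjusted p under 0.05 there were then 719 genes (4.95%), 401 higher (2.76%) and 318 lower (2.19%). DESeq2 on these 5 libraries called 16 genes (0.132%), 10 of them higher (0.0827%) and 6 lower (0.0496%). Those called only in this fit were Tln2, Plekha6, Per3, Tef and Tsc22d3, higher, and Adamts1 and Adh7, lower. Called only with all 6 libraries were Cyp24a1, Plek, Ucp1, Il2rb and Cd52, higher, and Ehhadh, lower. In the 5-library DESeq2 fit the adjusted p was 0.633 for Cyp24a1, 0.147 for Plek and 0.0557 for Ehhadh. Il2rb and Ucp1 had no adjusted p there. The genes that differed over 2-fold were 169 higher and 7 lower with all 6 libraries, and 37 higher and 34 lower with 5. The common biological coefficient of variation went from 0.101 to 0.0783. The tilt towards Trp/Trp was largest among sparse genes. Of the 3616 genes with the lowest counts, 237 were higher and 27 lower at an unadjusted p under 0.05. Their median log2 fold change was 0.13, which was 0.043 without Trp/Trp replicate 1. In the next 3616 genes by count, 156 were higher and 63 lower, and in the 3616 after these, 86 and 97. Among the 3616 genes with the highest counts, 53 were higher and 107 lower.

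The precision of the comparison differed with the level of a gene. The 95% interval lay within 2-fold either way for 88.7% of all genes tested, for 57.6% of the 3616 with the lowest counts and for 97.8% to 99.8% in each of the 3 groups of 3616 above these. On simulated counts with the means and library sizes of these 6 libraries, the same test recovered 65.7% of genes given a 1.5-fold change, 79.1% of those given 2-fold and 97.0% of those given 4-fold, in a run on 14389 genes. Recovery meant an adjusted p under 0.05 in the right direction, with 67, 67 and 66 genes changed at these folds. No simulated library stood apart as Trp/Trp replicate 1 did. The rates hold for those settings and are not the power of this comparison. For nearly all genes above the lowest group the 95% interval left out a 2-fold difference, while for many scarce transcripts it did not.

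The genes of smallest p with all 6 libraries were picked among genes whose libraries did not overlap between genotypes. Their lack of overlap was thus a condition of the choice and not a result. They included 5 described first, higher in Trp/Trp and known from leukocytes. Cx3cr1, which monocytes and macrophages use to sense fractalkine (mm10 chromosome 9, 119901616 to 120069879), was at 2.75, 2.24 and 2.69 CPM in Arg/Arg and 6.65, 4.61 and 6.62 CPM in Trp/Trp. Every Trp/Trp library was above every Arg/Arg library, with a log2 fold change of 1.22 ± 0.19 (unadjusted p = 0.000132), and of 1.11 ± 0.20 without Trp/Trp replicate 1. Il2rb, a receptor chain for interleukins of T and natural killer (NK) cells, was at 1.67, 1.497 and 1.29 CPM in Arg/Arg and 4.21, 2.83 and 2.97 CPM in Trp/Trp. Mpeg1, which encodes the pore-forming protein of phagocytes, was at 17.4, 15.5 and 15.4 CPM in Arg/Arg and 37.1, 22.3 and 27.1 CPM in Trp/Trp. Again no libraries overlapped, and Trp/Trp replicate 1 was the highest in both genes. The log2 fold changes were 1.17 ± 0.23 and 0.84 ± 0.16, and 0.96 ± 0.21 and 0.61 ± 0.10 without that library. Plek, pleckstrin of leukocytes and platelets, had a log2 fold change of 1.05 ± 0.18, and 0.89 ± 0.18 without it. Sla, a Src-like adaptor of lymphocytes, had a log2 fold change of 0.79 ± 0.18, and 0.62 ± 0.17 without it.

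Other genes in this set included Dusp1, Cyp24a1 and Hmcn2. Dusp1, which encodes a phosphatase that inactivates MAP kinases (mm10 chromosome 17, 26505590 to 26562128), was at 70.2, 61.8 and 59.1 CPM in Arg/Arg and 104, 87.4 and 84.7 CPM in Trp/Trp. Cyp24a1, the enzyme that degrades active vitamin D, was at 137, 105 and 94.3 CPM in Arg/Arg and 172, 171 and 167 CPM in Trp/Trp. Hmcn2, the matrix protein hemicentin-2 (mm10 chromosome 2, 31314415 to 31460738), was at 10.2, 9.30 and 11.3 CPM in Arg/Arg and 12.9, 17.9 and 20.0 CPM in Trp/Trp. By the rule of choice none of these libraries overlapped between genotypes, and in Hmcn2 replicates 2 and 3 were the high ones. The log2 fold changes were 0.53 ± 0.093 for Dusp1 (unadjusted p = 0.000285), 0.60 ± 0.12 for Cyp24a1 (unadjusted p = 0.000641) and 0.72 ± 0.16 for Hmcn2 (unadjusted p = 0.00132). Without Trp/Trp replicate 1, Hmcn2 had a log2 fold change of 0.88 ± 0.11 and the smallest unadjusted p in the table, 1.79e-05. Smaller differences, with libraries that did not overlap, were those of Baiap2, an actin regulator (log2 fold change 0.27 ± 0.061), Slco2b1, an organic anion transporter (0.37 ± 0.084), Cxcl14, a chemokine (0.39 ± 0.087), Col14a1, a fibril-associated collagen (0.23 ± 0.052), Rin3, a Rab exchange factor (0.31 ± 0.065), and Osmr, the oncostatin M receptor (0.47 ± 0.11).

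The genes of smallest p on the lower side included Nt5e, enzymes of fatty acid metabolism, a bile acid receptor and a urea transporter. These too were picked among genes whose libraries did not overlap, so that this was a condition of the choice. Nt5e (mm10 chromosome 9, 88327197 to 88372092) encodes CD73, the surface enzyme that makes adenosine from AMP, and was at 143, 168 and 134 CPM in Arg/Arg and 93.5, 88.2 and 117 CPM in Trp/Trp. Every Trp/Trp library lay below every Arg/Arg library, with a log2 fold change of -0.58 ± 0.12 (unadjusted p = 0.000782) and of -0.54 ± 0.13 without Trp/Trp replicate 1. Ehhadh, a peroxisomal enzyme of fatty acid oxidation, was at 886, 962 and 904 CPM in Arg/Arg and 731, 734 and 786 CPM in Trp/Trp. Nr1h4, the bile acid receptor FXR, was at 178, 163 and 154 CPM in Arg/Arg and 105, 137 and 120.5 CPM in Trp/Trp. Slc14a2, which encodes the urea transporters of the inner medulla and thin limb, was at 68.1, 62.0 and 67.2 CPM in Arg/Arg and 57.0, 52.4 and 53.2 CPM in Trp/Trp. In all 3 genes the groups did not overlap, with differences of -0.29 ± 0.060, -0.45 ± 0.097 and -0.28 ± 0.061 on the log2 scale, and Trp/Trp replicate 1 was the lowest library only in Ehhadh and Nr1h4. Bcat1, a branched-chain amino acid transaminase, was at 42.8, 36.7 and 31.8 CPM in Arg/Arg and 27.4, 19.7 and 25.4 CPM in Trp/Trp and had a log2 fold change of -0.62 ± 0.14. H1f2, a linker histone, was at 139, 112 and 113 CPM in Arg/Arg and 94.2, 92.0 and 89.3 CPM in Trp/Trp and had a log2 fold change of -0.40 ± 0.086. Also lower without overlap were Pex11a, a factor of peroxisome division (log2 fold change -0.32 ± 0.079), Acsl3, an acyl-CoA synthetase (-0.29 ± 0.073), Slc25a22, a mitochondrial glutamate carrier (-0.44 ± 0.11), Gpx6, a glutathione peroxidase (-0.31 ± 0.072), Ugt8a, which makes galactosylceramide (-0.31 ± 0.075), Plekha8, a glycolipid carrier (-0.26 ± 0.060), Mpped1 (-0.58 ± 0.13) and Klhl14 (-0.70 ± 0.18).

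**Figure D2:**
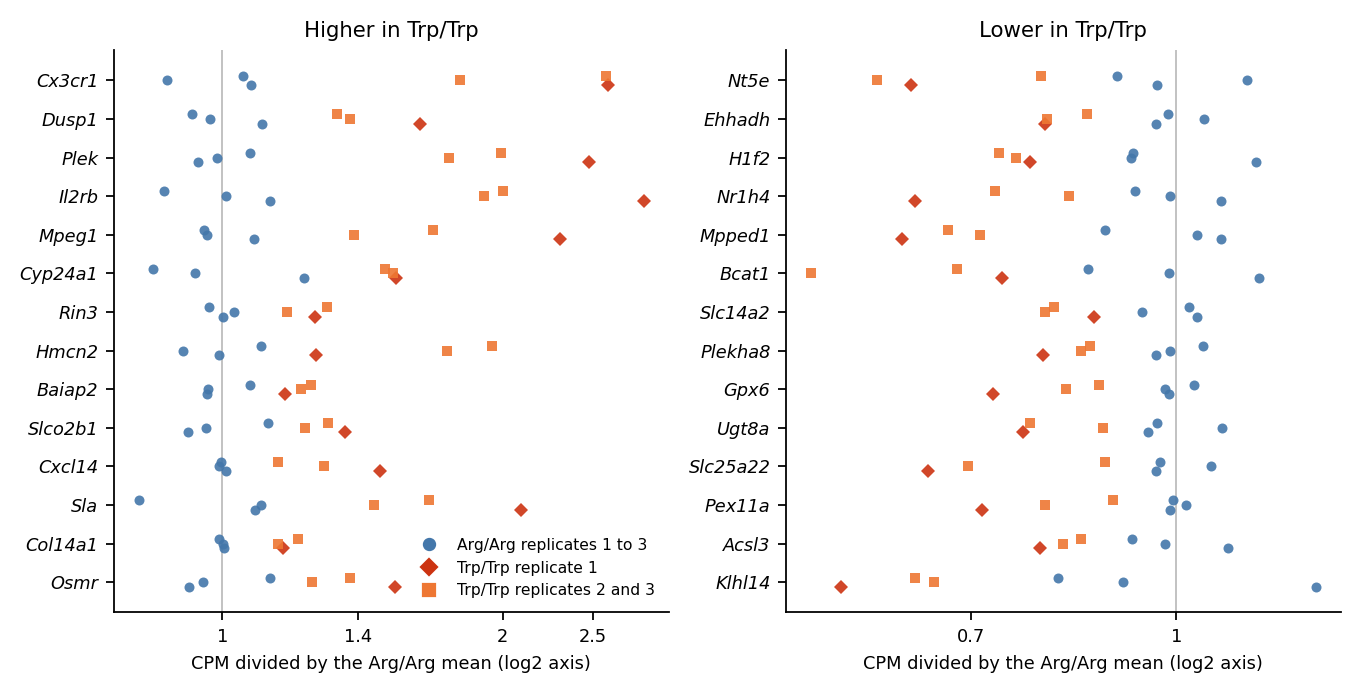
CPM of 14 genes higher (left) and 14 genes lower (right) in Trp/Trp, from those of smallest unadjusted p whose libraries did not overlap, divided by the Arg/Arg mean on a log2 axis. Symbols are circles for Arg/Arg, a diamond for Trp/Trp replicate 1 and squares for Trp/Trp replicates 2 and 3. In Cx3cr1 the Trp/Trp values were 6.65, 4.61 and 6.62 CPM against 2.75, 2.24 and 2.69 CPM, and in Nt5e 93.5, 88.2 and 117 CPM against 143, 168 and 134 CPM.

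Leukocyte gene lists had positive medians. Of 24 genes in the list of T and NK cells, 22 were in the table, 17 passed the filter on low counts and these were positive. Of the 17, 11 were higher at an unadjusted p under 0.05, against 3.68% of all genes tested, and their median log2 fold change was 1.17, against 0.0021 for all genes and 0.13 for the 3616 with the lowest counts. Without Trp/Trp replicate 1, 18 passed the filter, 18 were positive, 6 were at that p (against 2.76% of all genes), and the median was 0.76. With each library left out in turn the count at that p was 6 (without Trp/Trp replicate 1) to 13 (without Trp/Trp replicate 2). Since scarce genes can pass the filter through the genotype in which they are higher, these counts are a description. Cd3d, a chain of the T cell receptor complex, was at 0.322, 0.351 and 0.214 CPM in Arg/Arg and 0.994, 0.735 and 0.938 CPM in Trp/Trp. Cd8a, the co-receptor of cytotoxic T cells, was at 1.73, 1.11 and 1.65 CPM in Arg/Arg and 2.91, 2.53 and 2.40 CPM in Trp/Trp. Neither gene's libraries overlapped, and here replicates 2 and 3 were about as far above Arg/Arg as replicate 1. The log2 fold changes were 1.54 ± 0.33 and 0.82 ± 0.23, and 1.41 ± 0.38 and 0.75 ± 0.25 without replicate 1. These are sparse transcripts, with 7 to 39 counts of Cd3d per library.

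Of 20 resident macrophage genes, 18 were tested, 17 were positive and 11 were at an unadjusted p under 0.05 (against 3.68% of all genes tested), none of them lower. Their median was 0.57, and 0.25 with 6 at that p (against 2.76% of all genes) without Trp/Trp replicate 1, while leaving out each library gave a count of 6 (without Trp/Trp replicate 1) to 14 (without Trp/Trp replicate 2). Adgre1, which encodes the F4/80 antigen, was at 5.50, 4.01 and 3.77 CPM in Arg/Arg and 6.98, 6.10 and 7.71 CPM in Trp/Trp. Lyz2, lysozyme of myeloid cells, was at 15.6, 12.9 and 11.1 CPM in Arg/Arg and 46.0, 17.6 and 23.7 CPM in Trp/Trp. Adgre1 was alike in the 3 Trp/Trp libraries, whereas Lyz2 was highest in replicate 1, with log2 fold changes of 0.64 ± 0.17 and 1.15 ± 0.31 that became 0.62 ± 0.19 and 0.63 ± 0.16 without it. Ccr2, the receptor that brings monocytes to tissue, was at 4.04, 3.68 and 4.53 CPM in Arg/Arg and 9.66, 4.80 and 8.13 CPM in Trp/Trp, with a log2 fold change of 0.88 ± 0.24, and 0.62 ± 0.22 without replicate 1. It belonged to another list, of monocytes and neutrophils, with 8 of 11 tested positive and a median of 0.59. In that list 5 were higher at that p (against 3.68% of all genes) and 0 lower. Without replicate 1, 1 was at that p (against 2.76%) and the median was 0.20. Members then ran from -0.78 to 0.62, with Ccr2 the highest.

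Lists of antigen presentation had positive medians. Of 12 MHC class II genes, 11 were tested and 8 were higher at an unadjusted p under 0.05 (against 3.68% of all genes tested), with a median of 0.56 that was 0.27, with 6 at that p (against 2.76% of all genes), without Trp/Trp replicate 1. The count was 5 with Arg/Arg replicate 2 left out. Cd74, the invariant chain, was at 159, 160.4 and 127 CPM in Arg/Arg and 302, 179 and 209.6 CPM in Trp/Trp. H2-Eb1, a class II beta chain, was at 76.8, 73.7 and 62.8 CPM in Arg/Arg and 132, 81.9 and 100.1 CPM in Trp/Trp. Both had groups that did not overlap, with replicate 1 the highest and log2 fold changes of 0.63 ± 0.17 and 0.56 ± 0.15, or 0.38 ± 0.10 and 0.35 ± 0.10 without it. In the dendritic cell list 12 of 13 tested were positive and 5 were higher at that p (against 3.68% of all genes), with a median of 0.60. Without replicate 1 the median was 0.27 with 4 at that p, and the count was 9 with Trp/Trp replicate 2 left out. Wdfy4, which conventional dendritic cells need for cross-presentation, had a log2 fold change of 1.01 ± 0.26, and 0.65 ± 0.19 without replicate 1. Xcr1, their chemokine receptor, had a log2 fold change of 1.01 ± 0.30, and 0.82 ± 0.32 without it. MHC class I and immunoproteasome genes had a smaller median, with 17 of 17 positive, 4 at that p (against 3.68% of all genes) and a median of 0.22, or 0.079 without replicate 1. The count at that p was 0 with Arg/Arg replicate 3 or Trp/Trp replicate 1 or 3 left out, 2 with Arg/Arg replicate 2 left out and 11 with Trp/Trp replicate 2 left out. B2m, the class I light chain, was at 193, 179 and 172 CPM in Arg/Arg and 241, 180.5 and 229 CPM in Trp/Trp, and its groups overlapped.

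In the complement list 18 of 18 tested were positive and 7 were higher at an unadjusted p under 0.05, against 3.68% of all genes tested (median 0.35, and 0.14 without Trp/Trp replicate 1), a count of 3 (without Arg/Arg replicate 1) to 10 (without Trp/Trp replicate 2) with each library left out. C3, the central complement protein, was at 18.8, 20.9 and 20.7 CPM in Arg/Arg and 68.3, 25.01 and 23.5 CPM in Trp/Trp, and its log2 fold change of 0.97 ± 0.36 was 0.27 ± 0.084 without replicate 1, whereas that of the receptor C3ar1 was 0.84 ± 0.26 and 0.89 ± 0.28. In the NF-kappaB, cytokine and chemokine list 5 of 24 tested were higher at that p (against 3.68% of all genes), with a median of 0.17, or 0.070 without replicate 1. The count was 2 with Trp/Trp replicate 1 left out, 3 with Arg/Arg replicate 3 or Trp/Trp replicate 3 left out and 8 with Trp/Trp replicate 2 left out. Ccl2, a monocyte chemoattractant, had a log2 fold change of 1.39 ± 0.41, and 1.255 ± 0.48 without replicate 1. It was sparse, with 6 to 24 counts per library. Vcam1, a leukocyte adhesion molecule, had a log2 fold change of 0.46 ± 0.14, and 0.27 ± 0.099 without it. The JAK-STAT and cytokine receptor list, which holds the partners of LNK, had a median of 0.022, with 4 of 32 tested higher and 1 lower at that p (against 3.68% and 2.03% of all genes). Without replicate 1 the median was -0.032 with 1 higher and 1 lower, and 7 were higher without Trp/Trp replicate 2. Jak1 was at 160.1, 165 and 165 CPM in Arg/Arg and 154, 162 and 159 CPM in Trp/Trp. Jak2 was at 44.4, 44.4 and 43.3 CPM in Arg/Arg and 43.5, 44.8 and 42.0 CPM in Trp/Trp, and the groups of both kinases overlapped. Socs2, a feedback inhibitor, was the lower gene, at 8.78, 6.60 and 7.17 CPM in Arg/Arg and 6.27, 5.77 and 4.69 CPM in Trp/Trp, and the higher genes included Ifnar2 (log2 fold change 0.28 ± 0.095), an interferon receptor chain, and Csf2ra (0.34 ± 0.12), the GM-CSF receptor. Sh2b2, an adaptor of the same family as Sh2b3, was at 0.937, 0.721 and 0.949 CPM in Arg/Arg and 1.81, 1.17 and 1.56 CPM in Trp/Trp. Interferon-stimulated genes had a median of 0.041, with 1 of 31 higher at that p (against 3.68% of all genes), and 1 to 6 over the left-out libraries.

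Stromal, fat and urothelial lists had smaller medians without Trp/Trp replicate 1. The urothelium list was positive in 14 of 14 tested, with 6 higher at an unadjusted p under 0.05 (against 3.68% of all genes tested) and a median of 1.23, or 0.0087 without that library. The count at that p was 0 with Arg/Arg replicate 3 or Trp/Trp replicate 1 left out, 1 with Arg/Arg replicate 1 left out, 3 with Arg/Arg replicate 2 left out and 10 with Trp/Trp replicate 2 or 3 left out. For B and plasma cells, with 10 of 16 tested, the median went from 0.97 to -0.0018, and for fibroblasts from 0.43 to 0.074. Dcn, the proteoglycan decorin of fibroblasts, was at 36.6, 34.9 and 31.9 CPM in Arg/Arg and 109, 39.5 and 40.0 CPM in Trp/Trp. Acta2, smooth muscle actin, was at 59.3, 70.7 and 64.1 CPM in Arg/Arg and 151, 59.5 and 57.3 CPM in Trp/Trp. Both were over 2-fold higher in replicate 1 than in any other library, yet Dcn stayed positive without it (log2 fold change 0.20 ± 0.075) while Acta2 turned negative (-0.15 ± 0.080). In the extracellular matrix and fibrosis list 33 of 37 tested were positive, with 4 at that p (against 3.68% of all genes) and a median of 0.27, and without replicate 1, 25 were positive and the median was 0.030. The count at that p was 2 with Arg/Arg replicate 1 or Trp/Trp replicate 1 left out, 10 with Trp/Trp replicate 3 left out and 17 with Trp/Trp replicate 2 left out. Col3a1, a fibrillar collagen, was at 51.1, 51.7 and 48.1 CPM in Arg/Arg and 90.1, 51.2 and 45.1 CPM in Trp/Trp, level in 5 libraries, and Bgn, the proteoglycan biglycan, at 143, 158 and 164 CPM in Arg/Arg and 250.1, 176 and 194 CPM in Trp/Trp, without overlap. Of 19 adipocyte genes tested, 9 were higher and 1 lower at that p (against 3.68% and 2.03% of all genes) with a median of 0.82, or 0.14 without that library. The higher count was 3 with Arg/Arg replicate 3 or Trp/Trp replicate 1 left out and 5 with Arg/Arg replicate 1 or 2 left out. Ucp1, which makes heat in brown fat, was at 0.907, 0.869 and 0.459 CPM in Arg/Arg and 3.34, 1.62 and 2.35 CPM in Trp/Trp, so that replicates 2 and 3 were also above Arg/Arg. Whether attached pelvis, fat or lymphoid tissue entered into these values was not tested.

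**Figure D3:**
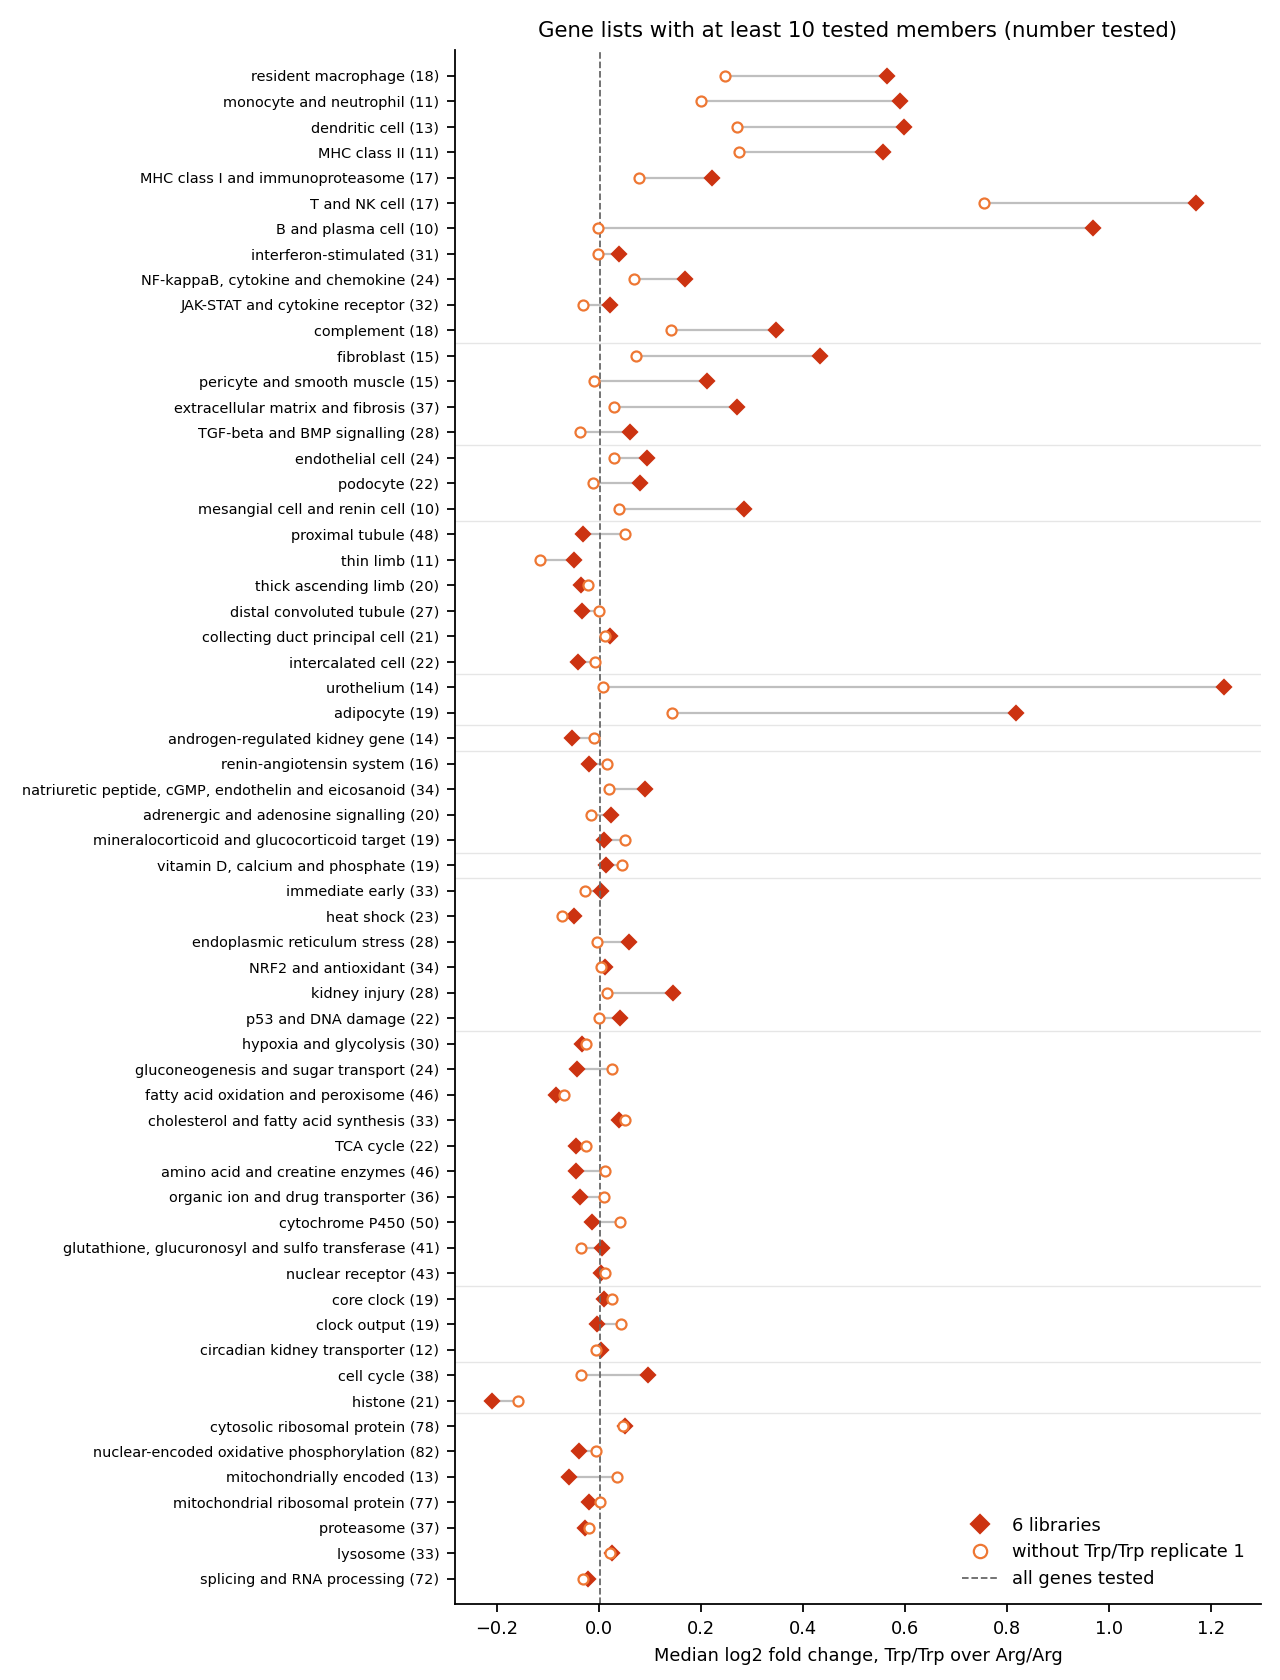
Median log2 fold change, Trp/Trp over Arg/Arg, of each gene list with at least 10 tested members (number in brackets), with all 6 libraries (filled diamonds) and without Trp/Trp replicate 1 (open circles), with the median of all genes tested as a dashed line. The T and NK cell list stood at 1.17 and 0.76, the urothelium list at 1.23 and 0.0087, and the nephron segment lists lay between -0.048 and 0.022 with 6 libraries.

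With all 6 libraries the nephron's own markers differed little between genotypes. The medians of the 6 segment lists lay between -0.048 and 0.022, and of the 149 members tested 2 were higher and 3 lower at an unadjusted p under 0.05 (against 3.68% and 2.03% of all genes tested). Without Trp/Trp replicate 1, 8 were higher and 3 lower (against 2.76% and 2.19% of all genes tested in that fit). Over each library left out the counts were 2 to 8 higher and 3 to 8 lower. The proximal tubule list, with 16 of 48 positive, had 32 positive and 4 higher at that p (against 2.76%) without Trp/Trp replicate 1. Its median went from -0.030 to 0.052. The thin limb median went from -0.048 to -0.12. Lrp2, the endocytic receptor megalin of the proximal tubule, was at 2320, 2371 and 2191 CPM in Arg/Arg and 2014, 2506 and 2358 CPM in Trp/Trp. Slc12a1, the target of loop diuretics in the thick ascending limb, was at 1724, 1806 and 1710 CPM in Arg/Arg and 1761, 1719 and 1469 CPM in Trp/Trp. Slc12a3, the thiazide-sensitive cotransporter, was at 1590, 1691 and 1565 CPM in Arg/Arg and 1496, 1684 and 1610 CPM in Trp/Trp. All 3 overlapped, and the 95% intervals of their log2 fold changes were -0.19 to 0.19, -0.26 to 0.093 and -0.17 to 0.13. Slc34a1, the phosphate transporter, had an interval of -0.17 to 0.20, Umod, uromodulin, one of -0.17 to 0.12, Slc9a3, the sodium-hydrogen exchanger, one of -0.25 to 0.16, Scnn1a, a subunit of the epithelial sodium channel, one of -0.096 to 0.24, and Aqp2, the water channel under vasopressin control, one of -0.045 to 0.45. Slc4a9, a bicarbonate transporter of intercalated cells, was the lower member of its list, at 122, 118 and 141 CPM in Arg/Arg and 103, 114 and 109 CPM in Trp/Trp (log2 fold change -0.22 ± 0.076). Podocyte genes had 0 of 22 at that p (against 5.71% of all genes tested) and a median of 0.081, or -0.010 without Trp/Trp replicate 1. Between 0 and 3 were higher over the left-out libraries, and 2 were lower without Arg/Arg replicate 3 or without Trp/Trp replicate 2. Nphs1, nephrin of the filtration slit, was at 24.2, 31.0 and 27.8 CPM in Arg/Arg and 34.0, 27.9 and 26.0 CPM in Trp/Trp. Endothelial genes had 1 of 24 higher at that p (against 3.68% of all genes tested), and 0 to 3 over the left-out libraries. Their median was 0.094, or 0.030 without Trp/Trp replicate 1. Pecam1 was at 65.6, 73.0 and 77.8 CPM in Arg/Arg and 89.6, 71.5 and 73.9 CPM in Trp/Trp.

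Genes of the renin-angiotensin system also had a median near 0, at -0.019. Of 16 tested, 0 were at an unadjusted p under 0.05 (against 5.71% of all genes tested). In so short a list that count cannot be told from the share of all genes. With Trp/Trp replicate 3 left out, 1 was higher at that p. Agtr1a, the main angiotensin II receptor of the kidney, was at 44.8, 42.8 and 40.3 CPM in Arg/Arg and 42.2, 40.9 and 45.3 CPM in Trp/Trp, with a log2 fold change of 0.0020 ± 0.065 and an interval of -0.14 to 0.15. Agt, the precursor of angiotensin, was at 68.5, 72.3 and 74.6 CPM in Arg/Arg and 65.3, 70.0 and 73.0 CPM in Trp/Trp. Ace, which makes angiotensin II, was at 211, 191 and 152 CPM in Arg/Arg and 133, 194 and 200.3 CPM in Trp/Trp. The groups of all 3 genes overlapped. Ren1, renin, was at 14.8, 20.995 and 17.6 CPM in Arg/Arg and 53.2, 18.1 and 13.8 CPM in Trp/Trp, which gave a log2 fold change of 0.69 ± 0.42 with all libraries and -0.15 ± 0.16 without replicate 1, when the direction turned. Agt and Ace were named for their role, outside the rule for named genes.

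Among the other genes that set vascular tone and sodium balance, 2 of 34 in the natriuretic peptide, cGMP, endothelin and eicosanoid list were lower at an unadjusted p under 0.05 and 0 higher (against 2.03% and 3.68% of all genes tested). The lower count was 0 with Arg/Arg replicate 1 or 2 or Trp/Trp replicate 2 left out and 4 with Trp/Trp replicate 3 left out. Corin, the protease that activates the natriuretic peptide precursor, was at 7.26, 7.24 and 6.25 CPM in Arg/Arg and 4.84, 4.86 and 6.20 CPM in Trp/Trp. Bdkrb2, the bradykinin B2 receptor, was at 2.08, 2.29 and 1.47 CPM in Arg/Arg and 1.48, 1.28 and 0.886 CPM in Trp/Trp. Corin's groups did not overlap, while Bdkrb2 had Trp/Trp replicate 1 level with the lowest Arg/Arg library, and the log2 fold changes were -0.40 ± 0.14 and -0.66 ± 0.27. Npr1, the receptor for atrial natriuretic peptide, had an interval of -0.074 to 0.34 and Edn1, endothelin-1, one of -0.46 to 0.46. Sgk1, a kinase gene driven by aldosterone and glucocorticoid, was at 200.4, 200.2 and 186 CPM in Arg/Arg and 264, 192 and 191 CPM in Trp/Trp. Nt5e was the only lower gene at that p in the adrenergic and adenosine list of 20 tested.

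**Figure D4:**
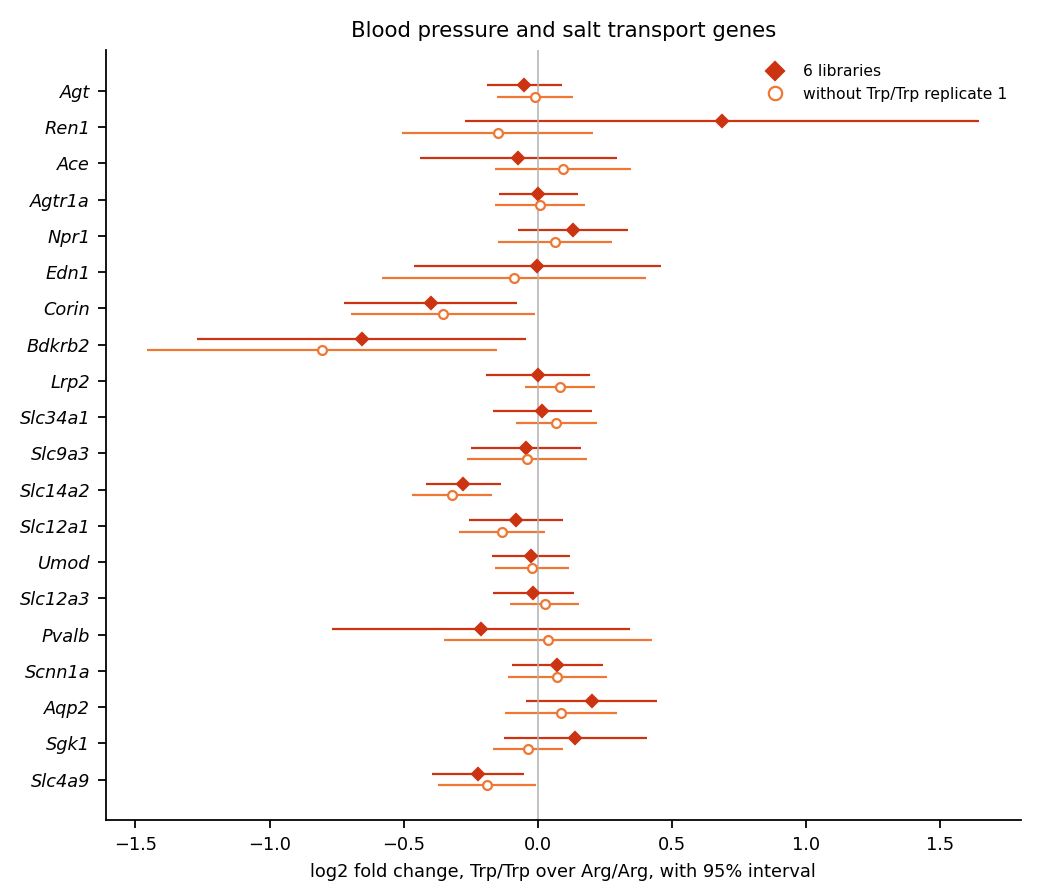
Log2 fold change, Trp/Trp over Arg/Arg, with its 95% interval for 20 genes of blood pressure control and tubular transport, with all 6 libraries (filled diamonds) and without Trp/Trp replicate 1 (open circles). The intervals of Lrp2 (-0.19 to 0.19), Umod (-0.17 to 0.12) and Slc12a3 (-0.17 to 0.13) include 0, that of Slc14a2 (-0.42 to -0.14) lies below 0, and Ren1 moves from 0.69 to -0.15.

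Vitamin D, calcium and phosphate genes included 1 higher and 1 lower of 19 at an unadjusted p under 0.05 (against 3.68% and 2.03% of all genes tested). Over the left-out libraries, 1 to 2 were higher and 0 to 2 lower. Besides Cyp24a1, above, Cyp27b1, which makes active vitamin D, was at 2.34, 4.12 and 5.57 CPM in Arg/Arg and 6.37, 4.58 and 6.46 CPM in Trp/Trp, with groups that overlapped. Slc20a1, a phosphate transporter, was the lower gene, at 29.1, 27.6 and 26.7 CPM in Arg/Arg and 24.7, 24.0 and 26.3 CPM in Trp/Trp, with a log2 fold change of -0.16 ± 0.066.

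Genes of the circadian clock were among those of smallest p without Trp/Trp replicate 1. The clock is a loop in which ARNTL (BMAL1) with CLOCK or NPAS2 binds E-boxes and drives Per, Cry and Nr1d genes, whose products feed back on it, and in which DBP and TEF act on D-boxes. Arntl was at 20.96, 21.2 and 22.9 CPM in Arg/Arg and 17.0, 18.8 and 13.1 CPM in Trp/Trp. Npas2 was at 13.4, 9.85 and 12.5 CPM in Arg/Arg and 8.79, 10.2 and 6.72 CPM in Trp/Trp. Arntl was lower in all 3 Trp/Trp libraries (-0.39 ± 0.12, unadjusted p = 0.00935, and -0.41 ± 0.13 without replicate 1), and Npas2 overlapped in 1 library pair (log2 fold change -0.45 ± 0.17). Clock was at 77.4, 79.3 and 76.7 CPM in Arg/Arg and 73.9, 73.2 and 60.6 CPM in Trp/Trp and had a log2 fold change of -0.16 ± 0.078. On the other side of the loop Dbp was at 14.8, 14.1 and 13.6 CPM in Arg/Arg and 18.5, 21.4 and 35.6 CPM in Trp/Trp. Per2 was at 22.9, 29.9 and 28.0 CPM in Arg/Arg and 31.99, 33.2 and 34.4 CPM in Trp/Trp. In both genes the groups did not overlap, with log2 fold changes of 0.81 ± 0.21 for Dbp and 0.30 ± 0.096 for Per2.

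Per3 and Tef showed a difference between replicates of the Trp/Trp group. Per3 was at 22.7, 22.4 and 25.6 CPM in Arg/Arg and 22.9, 32.3 and 36.0 CPM in Trp/Trp. Tef was at 247, 254 and 262 CPM in Arg/Arg and 239.6, 307 and 338 CPM in Trp/Trp. In these genes Trp/Trp replicate 1 lay at the Arg/Arg level and replicates 2 and 3 above it, so that the log2 fold changes were 0.36 ± 0.15 and 0.21 ± 0.11 with 6 libraries and 0.53 ± 0.087 (unadjusted p = 0.000154) and 0.34 ± 0.061 (unadjusted p = 0.000298) with 5. Nr1d2, a repressor of Arntl, followed the same order, at 115, 131 and 131 CPM in Arg/Arg and 123, 144 and 145 CPM in Trp/Trp. Tsc22d3, a glucocorticoid-induced gene, was at 116, 126 and 114 CPM in Arg/Arg and 131, 155 and 144 CPM in Trp/Trp, without overlap. Per1 was at 99.6, 80.8 and 58.0 CPM in Arg/Arg and 71.8, 82.5 and 86.1 CPM in Trp/Trp. Nfil3, which opposes DBP at D-boxes, was at 13.7, 13.8 and 26.6 CPM in Arg/Arg and 11.04, 15.9 and 7.19 CPM in Trp/Trp, and neither separated the genotypes.

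Over the whole core clock list, 2 of 19 were higher and 2 lower at an unadjusted p under 0.05 (against 3.68% and 2.03% of all genes tested). Without Trp/Trp replicate 1, 3 were higher and 3 lower (against 2.76% and 2.19% of all genes tested in that fit). With each library left out in turn, the number higher ran from 1 (without Arg/Arg replicate 2 or Trp/Trp replicate 2 or 3) to 3 (without Arg/Arg replicate 3 or Trp/Trp replicate 1) and the number lower from 1 (without Arg/Arg replicate 3 or Trp/Trp replicate 3) to 4 (without Trp/Trp replicate 2). In the clock output list 2 of 19 were higher and 0 lower (against 3.68% and 2.03%), and 4 and 0 without Trp/Trp replicate 1 (against 2.76% and 2.19%). The lower count was 1 with Arg/Arg replicate 1 or 2 or Trp/Trp replicate 2 left out, and the higher 3 with Arg/Arg replicate 3 left out. The medians of the core clock and clock output lists, 0.010 and -0.0040, were near that of all genes, and members lay on both sides. Within a day these transcripts rise and fall in a fixed order, and no label gives the time of collection, so its part in these values was not tested. Clock, Per1 and Nr1d2 were named after their values were seen.

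To show what these promoters hold, the 250 bases before the start of 3 genes described above are printed. In Per3 and Tef the genotypes overlapped with all 6 libraries and separated only without Trp/Trp replicate 1. The bases are from the RefSeq table of build GRCm38.p6, 5′ to 3′ on the gene's strand. Capitals mark exact matches, on either strand, to the D-box TTATGTAA in Per3 (chr4:151044666-151044915, minus strand), the E-box CACGTG in the first of 2 annotated starts of Tef (chr15:81802423-81802672, plus strand), and both the CRE TGACGTCA and an E-box in Dusp1 (chr17:26508473-26508722, minus strand).
Per3: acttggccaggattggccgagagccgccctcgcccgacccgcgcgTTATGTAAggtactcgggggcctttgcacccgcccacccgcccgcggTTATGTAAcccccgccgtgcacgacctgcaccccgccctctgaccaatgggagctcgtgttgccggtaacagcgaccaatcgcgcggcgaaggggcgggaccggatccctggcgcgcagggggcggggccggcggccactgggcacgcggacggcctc
Tef: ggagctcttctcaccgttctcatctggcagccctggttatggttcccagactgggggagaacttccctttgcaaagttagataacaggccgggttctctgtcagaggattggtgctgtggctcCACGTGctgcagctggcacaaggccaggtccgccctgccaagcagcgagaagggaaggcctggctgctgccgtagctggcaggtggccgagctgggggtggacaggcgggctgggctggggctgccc
Dusp1: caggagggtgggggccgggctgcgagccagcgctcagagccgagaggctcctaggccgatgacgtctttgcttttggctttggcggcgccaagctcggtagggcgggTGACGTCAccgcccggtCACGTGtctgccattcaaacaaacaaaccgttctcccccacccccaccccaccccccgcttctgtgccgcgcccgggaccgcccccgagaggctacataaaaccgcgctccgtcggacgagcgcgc
Per3 held a pair of D-boxes, which began 205 and 158 bases before the start, and Tef an E-box that began 127 bases before it. In Dusp1 the CRE began 143 and the E-box 126 bases before the start, and no matches overlapped. Of all 32851 promoters of this length, 6.02% held the E-box, 0.819% the D-box and 1.55% the CRE. By gene, 4 of 14 core clock genes with a promoter in the table held an E-box and 1 a D-box, and 4 of 17 clock output genes held an E-box, beside 6.86% of all genes for the E-box and 0.977% for the D-box. The E-box share was no lower in the immediate early list, at 30.8% (8 of 26), against 28.6% and 23.5% in these clock lists. In that list 3 of 26 held a CRE, beside 1.77% of all genes. One exact form of the serum response element was found in 0 of the 26 immediate early genes with a promoter in the table and in 0.0609% of all promoters. A match describes letters and is not a measured site.

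**Figure D5:**
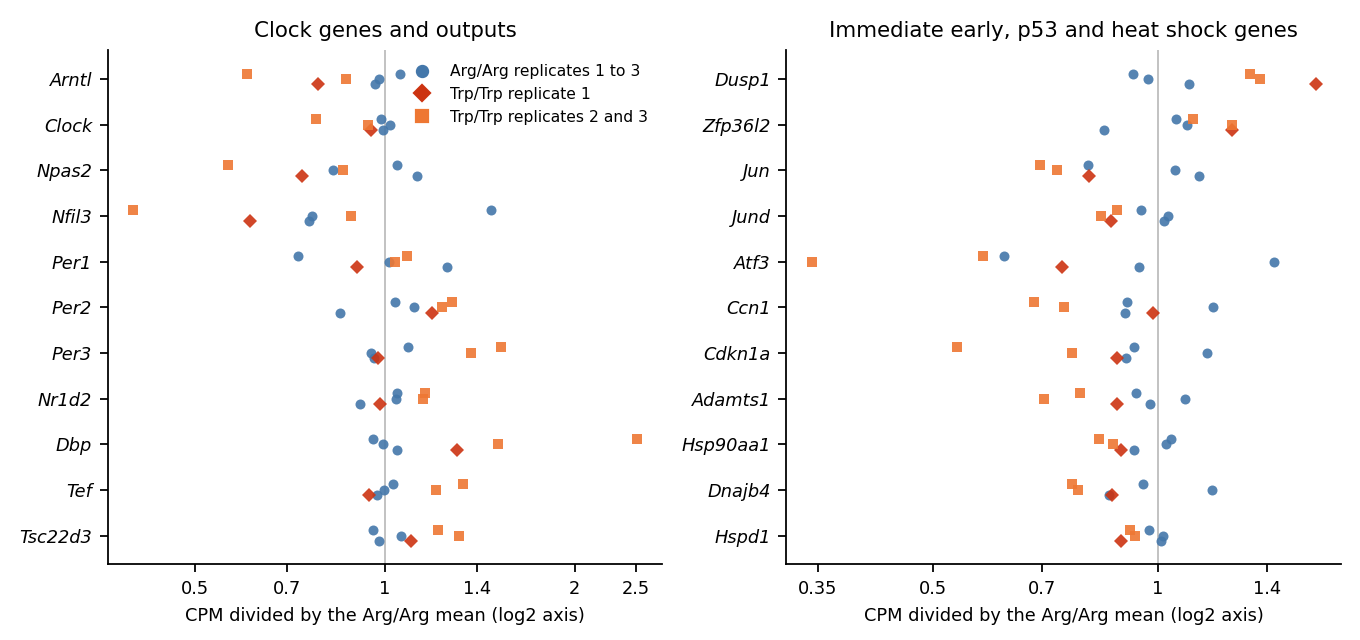
CPM of clock genes (left) and of immediate early, p53 and heat shock genes (right) in each library divided by the Arg/Arg mean, on a log2 axis, with circles for Arg/Arg, a diamond for Trp/Trp replicate 1 and squares for Trp/Trp replicates 2 and 3. In Per3 and Tef the diamond lies at the level of the circles, at 22.9 and 239.6 CPM, and the squares to their right, and in Jund and Hsp90aa1 all Trp/Trp points lie to the left of the circles.

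Immediate early genes, which respond within minutes to growth factors and stress, lay on both sides. Of 33 tested, 2 were higher and 3 lower at an unadjusted p under 0.05 (against 3.68% and 2.03% of all genes tested). The higher count was 4 with Arg/Arg replicate 1 left out and 7 with Trp/Trp replicate 2 left out, and the lower 6 with Trp/Trp replicate 1 left out. Jun, a subunit of AP-1, was at 57.9, 53.7 and 41.1 CPM in Arg/Arg and 41.1, 37.3 and 35.3 CPM in Trp/Trp. Jund, its relative, was at 49.6, 50.2 and 46.1 CPM in Arg/Arg and 42.2, 40.9 and 42.8 CPM in Trp/Trp. Jund did not overlap (log2 fold change -0.21 ± 0.057), and in Jun the highest Trp/Trp library was at the level of the lowest Arg/Arg library (-0.42 ± 0.12). Atf3, a stress-induced factor named after its values were seen, was at 3.63, 5.51 and 2.39 CPM in Arg/Arg and 2.85, 1.32 and 2.24 CPM in Trp/Trp. Dusp1, with the values above, and Zfp36l2, an mRNA decay factor (63.7, 82.5 and 79.8 CPM in Arg/Arg and 94.8, 94.8 and 84.1 CPM in Trp/Trp), were the higher members. Ccn1, a matrix signal that mechanical strain induces, was at 34.8, 45.6 and 34.999 CPM in Arg/Arg and 37.9, 28.8 and 26.2 CPM in Trp/Trp, where replicate 1 lay among the Arg/Arg libraries, and had a log2 fold change of -0.48 ± 0.12 without it.

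Of 23 heat shock genes, 3 were lower and 0 higher at an unadjusted p under 0.05 (against 2.03% and 3.68% of all genes tested), namely Hsp90aa1, a cytosolic chaperone (427, 472 and 479 CPM in Arg/Arg and 410.1, 400.2 and 383 CPM in Trp/Trp), Dnajb4 (53.7, 73.8 and 59.5 CPM in Arg/Arg and 54.2, 48.8 and 47.8 CPM in Trp/Trp) and Hspd1, a mitochondrial chaperonin (734, 739 and 709 CPM in Arg/Arg and 649.8, 678 and 668 CPM in Trp/Trp). The list's median was -0.049, with a range of -0.094 to 0.023 over left-out libraries, above 0 without Arg/Arg replicate 2 or 3, and 1 member was lower at that p without Arg/Arg replicate 2. The log2 fold changes were -0.21 ± 0.062, -0.31 ± 0.11 and -0.13 ± 0.052. Cdkn1a, the p53 target that stops the cell cycle, was at 30.4, 39.1 and 31.1 CPM in Arg/Arg and 29.5, 25.7 and 18.0 CPM in Trp/Trp, lower in every Trp/Trp library than in any Arg/Arg library (log2 fold change -0.44 ± 0.16). It was the 1 gene of 22 in the p53 and DNA damage list at that p (against 2.03% of all genes lower). The lower count was 0 to 2 over the left-out libraries. In the kidney injury list 4 of 28 were higher and 2 lower at that p (against 3.68% and 2.03% of all genes). The higher count was 1 with Arg/Arg replicate 3 or Trp/Trp replicate 1 left out, 2 with Arg/Arg replicate 2 left out and 8 with Trp/Trp replicate 2 or 3 left out, and the lower 0 with Arg/Arg replicate 2 or Trp/Trp replicate 3 left out and 1 with Trp/Trp replicate 2 left out. Havcr1, the injury marker KIM-1, was at 1.08, 0.850 and 1.102 CPM in Arg/Arg and 2.91, 1.43 and 1.04 CPM in Trp/Trp. Krt19, a keratin of ducts and urothelium, was at 6.29, 9.50 and 5.63 CPM in Arg/Arg and 33.0, 9.69 and 8.81 CPM in Trp/Trp, both highest in replicate 1.

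Fatty acid oxidation and peroxisome genes had the most lower members among the metabolic lists. Of 46 tested, 8 were lower and 0 higher at an unadjusted p under 0.05 (against 2.03% and 3.68% of all genes), 11 lay wholly below Arg/Arg (5.53% of all genes) and 0 above, 6 were positive and the median was -0.083. With each library left out in turn the lower count was 4 (without Arg/Arg replicate 2 or Trp/Trp replicate 1 or 2) to 18 (without Trp/Trp replicate 3), and the median -0.13 to -0.066. Besides Ehhadh and Pex11a, Acot12, an acyl-CoA thioesterase, was at 192, 201 and 181 CPM in Arg/Arg and 139.8, 171 and 176 CPM in Trp/Trp. Acot3, another, was at 17.3, 15.7 and 19.7 CPM in Arg/Arg and 15.3, 13.4 and 14.3 CPM in Trp/Trp. Both were lower in every Trp/Trp library, with log2 fold changes of -0.24 ± 0.088 and -0.29 ± 0.10, and -0.14 ± 0.062 and -0.34 ± 0.11 without replicate 1. TCA cycle genes were positive in 1 of 22 with 0 at that p, a median of -0.044 and a range of -0.11 to 0.0038, and 7 were positive without Trp/Trp replicate 1.

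Other metabolic genes showed scattered differences. In the gluconeogenesis and sugar transport list 1 of 24 was lower and 0 higher at an unadjusted p under 0.05 (against 2.03% and 3.68% of all genes tested). Without Trp/Trp replicate 1, 1 was lower and 3 higher (against 2.19% and 2.76%). Over the left-out libraries 1 to 3 were lower. G6pc, the last enzyme of glucose release, was at 374, 576 and 763 CPM in Arg/Arg and 580.2, 953 and 803 CPM in Trp/Trp. Sesn2, a stress-responsive regulator of mTORC1, was at 66.0, 103 and 104 CPM in Arg/Arg and 81.9, 150.02 and 141 CPM in Trp/Trp. Igfbp1, a fasting-induced binding protein, was at 7.23, 12.6 and 15.9 CPM in Arg/Arg and 10.02, 30.2 and 17.3 CPM in Trp/Trp. In each of the 3 genes replicates 2 and 3 of Trp/Trp were above every Arg/Arg library and replicate 1 was within their range, and Arg/Arg replicate 1 was the lowest library. Pck1, the first committed enzyme of the pathway, was at 2385, 2509 and 2231 CPM in Arg/Arg and 1759, 2557 and 2523 CPM in Trp/Trp, lowest in Trp/Trp replicate 1. Slc16a1, a lactate and pyruvate carrier, was at 40.2, 31.4 and 34.5 CPM in Arg/Arg and 29.3, 27.8 and 26.5 CPM in Trp/Trp, lower in every Trp/Trp library (log2 fold change -0.34 ± 0.092). Hmgcs1 of cholesterol synthesis was at 479.8, 471 and 497 CPM in Arg/Arg and 416, 461 and 403 CPM in Trp/Trp (log2 fold change -0.18 ± 0.064).

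Among nuclear receptors and their targets, Nr1h4 was lower as given above, whereas Nr0b2, which FXR is known to induce in liver, was at 1.46, 1.39 and 1.81 CPM in Arg/Arg and 2.19, 2.08 and 2.40 CPM in Trp/Trp and had a log2 fold change of 0.52 ± 0.21. Among transporters and conjugating enzymes, Slc22a7, an organic anion transporter, was at 73.6, 84.9 and 37.6 CPM in Arg/Arg and 28.9, 41.4 and 44.0 CPM in Trp/Trp, with Arg/Arg replicate 3 at the Trp/Trp level (log2 fold change -0.79 ± 0.27). Ugt2b37, a glucuronosyltransferase, was at 99.7, 86.2 and 82.8 CPM in Arg/Arg and 58.3, 75.8 and 79.5 CPM in Trp/Trp (log2 fold change -0.33 ± 0.12, and -0.21 ± 0.083 without Trp/Trp replicate 1). Cyp2f2, a xenobiotic-metabolising P450, was at 4.04, 4.10 and 3.98 CPM in Arg/Arg and 6.09, 6.21 and 4.74 CPM in Trp/Trp (log2 fold change 0.50 ± 0.15). Of 50 P450 genes tested, 4 were higher and 1 lower at an unadjusted p under 0.05, against 3.68% and 2.03% of all genes tested. Over the left-out libraries, 2 to 8 were higher and 0 to 3 lower.

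Several genes had a smaller p once Trp/Trp replicate 1 was left out. Tln2, talin-2, which links integrins to actin, was at 234, 224 and 231 CPM in Arg/Arg and 239.5, 293 and 296 CPM in Trp/Trp. Plekha6 was at 202, 197 and 209 CPM in Arg/Arg and 209, 252 and 251 CPM in Trp/Trp. Slc13a2, by which the proximal tubule takes up citrate, was at 32.7, 31.97 and 35.6 CPM in Arg/Arg and 30.1, 41.3 and 43.0 CPM in Trp/Trp. In all 3 genes replicates 2 and 3 were higher than every Arg/Arg library, while replicate 1 was nearest to Arg/Arg. Without it the log2 fold changes were 0.36 ± 0.052 (unadjusted p = 6.27e-05), 0.31 ± 0.054 (unadjusted p = 0.000254) and 0.33 ± 0.072 (unadjusted p = 0.00119). On the lower side, Adh7, which oxidises retinol and alcohols, was at 7.49, 9.19 and 7.44 CPM in Arg/Arg and 8.13, 4.97 and 4.22 CPM in Trp/Trp. Adamts1, a secreted protease, was at 59.1, 65.9 and 56.6 CPM in Arg/Arg and 53.4, 42.6 and 47.6 CPM in Trp/Trp. Adh7 in replicate 1 lay among Arg/Arg, while Adamts1 was lower in all 3. Leaving out replicate 1 gave log2 fold changes of -0.79 ± 0.15 for Adh7 and -0.43 ± 0.084 for Adamts1. Tle4, a transcriptional co-repressor, was at 16.3, 18.9 and 19.2 CPM in Arg/Arg and 15.6, 14.2 and 13.5 CPM in Trp/Trp (log2 fold change -0.32 ± 0.096, and -0.39 ± 0.10 without replicate 1).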

How the data were processed

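Polyadenylated RNA of 6 whole kidneys was sequenced, per the labels' protocols, and genotype, tissue and replicate were read from each title. The authors deposited raw counts per gene, whole numbers with library totals that differ. The submitters' processing notes name STAR, DRAGEN, DESeq2 and the build mm10, without versions or roles. Annotation release and strand setting are not given in the sources used here. Kept in the table were 15361 protein-coding genes whose counts summed to 12 or more, and 15356 of their identifiers were found in GENCODE M21, so that genes of other biotypes are not analysed here. Strand use in counting being unknown, reads of overlapping or near-identical genes could be shared between them. The deposited statistics were not used.

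Counts were fitted with genotype only in edgeR 4.0.16 (R 4.3.3): filterByExpr with a minimum count of 10 and total of 15, TMM scaling, the quasi-likelihood test and Benjamini-Hochberg adjustment at 0.05. The SE is the absolute log2 fold change over the square root of the F statistic, and 95% intervals use the moderated degrees of freedom. Alternatives were DESeq2 1.42.0, limma 3.58.1 (voom), other scalings and filters, a replicate block and each library left out. The tests were tried on simulated data first. Plots used Python 3.11.15 and matplotlib 3.10.9.

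The 65 gene lists, with 4 members matched by an older symbol, and the comparison itself were chosen with earlier results of these data known, and lists are described by counts and medians, with no set test. Genes were named by rule. The rule took Sh2b3 and the 15 of smallest p per direction among genes whose mean count reached 50 and whose libraries did not overlap. It also took the 15 of smallest p per direction without Trp/Trp replicate 1 at that mean count, with no condition on overlap. Further ones were the 15 highest and lowest in that library, and per list the first 2 and up to 4 of smallest p. A choice was made among these, and genes outside the rule are said to be so. Some genes are not reported here. CPM are compared between libraries and never between genes.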

Additional observations from a re-analysis of the deposited data

How the results depend on the processing

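No gene passed an adjusted p of 0.05 in edgeR under any scaling, filter or left-out library tried. Limma voom, run only on all 6 libraries with sample quality weights, called 0 genes. DESeq2 called 15 genes, and 16 without Trp/Trp replicate 1, and the cause of that gap was not tested. Counts of single genes at an unadjusted p under 0.05 carry no adjustment, and with 3 libraries per genotype 1 library moved them: leaving out each in turn gave 329 to 852 higher genes, with the fewest without Arg/Arg replicate 2 (329) and the most without Trp/Trp replicate 2 (852), and 163 to 402 lower genes, with the fewest without Arg/Arg replicate 2. DESeq2 without Trp/Trp replicate 1 gave 303 higher genes, and limma voom with sample quality weights 511 lower genes. With 5 libraries, 2619 to 3494 genes did not overlap, against 1611 with 6, since fewer libraries overlap less often. Replicate numbers are shared between genotypes, but same-numbered libraries did not deviate together (correlations of -0.077, -0.016 and -0.011). With the replicate block edgeR called 0 genes, with 423 higher and 268 lower at an unadjusted p under 0.05.

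Of 133 genes listed with values or plotted, 110 kept their sign under all 16 alternatives, and 23 turned, none of them past the threshold in edgeR. Leaving out each library in turn gave log2 fold changes of -0.92 to 2.47 for Cd79a, -0.028 to 2.31 for Krt15, -0.074 to 2.24 for Upk2, -0.39 to 0.31 for Wnt9b, -0.44 to 0.037 for Pvalb, -0.39 to 0.28 for Angptl7, -0.15 to 0.99 for Ren1, -0.037 to 0.036 for Agtr1a, -0.19 to 0.094 for Ace, -0.059 to 0.026 for Slc12a3, -0.069 to 0.0041 for Umod, -0.011 to 0.12 for Scnn1a, -0.15 to 0.015 for Slc9a3, -0.035 to 0.22 for Sgk1, -0.072 to 0.082 for Lrp2, -0.037 to 0.069 for Slc34a1, -0.12 to 0.20 for Edn1, -0.044 to 0.0052 for Jak2, -0.15 to 0.70 for Acta2, -0.061 to 0.49 for Col3a1, -0.042 to 0.18 for Nphs1, -0.15 to 0.095 for Pck1 and -0.17 to 0.20 for Per1. With limma voom and sample quality weights the log2 fold change was -0.13 for Cd79a, 0.033 for Pvalb, 0.049 for Angptl7, 0.020 for Ace, 0.021 for Lrp2, 0.030 for Edn1, -0.041 for Nphs1 and 0.0020 for Pck1. In DESeq2 without Trp/Trp replicate 1 the log2 fold change was -0.94 for Cd79a, -0.012 for Krt15, -0.069 for Upk2, 0.31 for Wnt9b, 0.040 for Pvalb, 0.29 for Angptl7, -0.16 for Ren1, 0.092 for Ace, 0.024 for Slc12a3, -0.037 for Sgk1, 0.081 for Lrp2, -0.15 for Acta2, -0.062 for Col3a1, -0.043 for Nphs1 and 0.093 for Pck1. With upper-quartile scaling the log2 fold change was 0.015 for Lrp2 and 0.015 for Edn1. With a minimum count of 50 the log2 fold change was 0.0030 for Lrp2 and 0.0038 for Edn1. With the replicate block the log2 fold change was 0.021 for Edn1. Of 65 list medians, 11 moved by at least the spread between libraries (1 SD) without Trp/Trp replicate 1, and 9 did so under some other alternative. The cause was not tested.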

Other observations

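Gene groups that every cell expresses differed by small amounts. Cytosolic ribosomal protein genes were positive in 68 of 78 with a median log2 fold change of 0.051. At an unadjusted p under 0.05, 2 were higher, against 3.68% of all genes tested. With Trp/Trp replicate 2 left out, 9 were higher at that p. Without Trp/Trp replicate 1 they were positive in 64 with a median of 0.047 and 0 at that p. Rps16, a protein of the small subunit, was at 229, 234 and 241 CPM in Arg/Arg and 265, 246 and 257 CPM in Trp/Trp. Nuclear-encoded genes of oxidative phosphorylation were positive in 15 of 82 with a median of -0.039, and in 39 of 82 without that library. Histone genes had a median of -0.21, and -0.16 without that library. Of 21 tested, 3 were lower at that p and 0 higher, against 2.03% and 3.68% of all genes tested. The lower count was 1 to 4 over the left-out libraries. Most histone transcripts lack a poly(A) tail, and selection for polyadenylated RNA was used here. Proteasome genes had a median of -0.027 with 0 of 37 at that p (3 higher without Trp/Trp replicate 2 and 1 lower without Trp/Trp replicate 3), and splicing genes -0.021 with 1 of 72 lower, or 1 to 3 over the left-out libraries.

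Some values belonged to single libraries or to no group above. mt-Atp8, a short mitochondrial gene that overlaps its neighbour, was at 3.22, 18.2 and 2.79 CPM in Arg/Arg and 2.78, 2.72 and 2.502 CPM in Trp/Trp, so that Arg/Arg replicate 2 alone was high. Hbb-bs, a haemoglobin chain of red cells whose near-identical copy could share its reads, was at 30.6, 14.4 and 16.1 CPM in Arg/Arg and 15.3, 11.5 and 12.9 CPM in Trp/Trp, highest in Arg/Arg replicate 1. Y-linked genes were expressed in all 6 libraries, and Ddx3y was at 82.1, 79.6 and 80.8 CPM in Arg/Arg and 73.6, 74.9 and 64.8 CPM in Trp/Trp, a log2 fold change of -0.18 ± 0.065 with no overlap. Kap, an androgen-driven proximal tubule gene, was at 13869, 13317 and 11127 CPM in Arg/Arg and 9781, 11428 and 13612 CPM in Trp/Trp. The androgen-regulated list had a median of -0.052. Of its 14 genes 0 were higher and 2 lower at an unadjusted p under 0.05, against 3.68% and 2.03% of all genes tested. Over the left-out libraries, 0 to 1 were higher and 0 to 3 lower.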
